A study of Mus musculus with 64 samples.

Results

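Benzo[a]pyrene (BaP) was compared with its vehicle in hk S.E.-activated bone marrow-derived macrophages (BMMs) of wild-type (Ahr+/+) mice at the late time point of the study. The libraries were chosen by their labels, which give 4 for BaP and 4 for the vehicle, so the comparison rests on 8 of the 64 libraries of the series. BMMs were grown from the bone marrow of young adult female C57BL/6JRj mice in medium conditioned by L929 fibroblasts. Cultures first received BaP at 1 µM or DMSO at 0.01% for 6 h, and then received 10000000 heat-killed Salmonella Enteritidis (hk S.E.) per ml for 20 h. All 8 cultures were thus activated, and no group of the series received BaP without hk S.E. BaP and DMSO libraries with the same replicate number were treated as pairs. The labels do not tie a replicate number to a mouse, so the spread between libraries may in part be technical. P-values and standard errors (SE) measure only that spread, taken within groups over all 64 libraries and not over these 8 alone. Values from other groups of 4 libraries are set beside them where stated: BaP and DMSO in activated Ahr-/- BMMs at 20 h, BaP and DMSO in activated Ahr+/+ BMMs at 3 h, and indole-3-carbinol (I3C) at 10 µM in activated Ahr+/+ BMMs at 20 h. The Ahr-/- mice carry a germline deletion and were backcrossed to C57BL/6JRj. The comparison asks how an AhR ligand alters gene expression of macrophages that respond to a bacterium.

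AhR, the aryl hydrocarbon receptor, is a transcription factor that chaperones hold in the cytosol until a ligand binds. With a ligand such as BaP, a polycyclic aromatic hydrocarbon of soot and tobacco smoke, it enters the nucleus, pairs with ARNT and binds DNA at the core motif GCGTG, the AhR response element (AHRE). Its classical targets are enzymes of xenobiotic metabolism and its own repressor, Ahrr, and in macrophages it is known as a modulator of the response to bacterial products.

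With BaP, the AhR repressor Ahrr, the collagenase Mmp8, the protease inhibitors Serpinb2 and Spint1 and the membrane protein Emp1 rose 2.76-fold to 3.96-fold. Among the genes that fell, by smaller amounts, were Pwp2 and Rrp12 of ribosome assembly, the ribosomal protein gene Rpl3 and the purine synthesis gene Atic. In all, 271 of 14537 genes tested (1.86%) were differentially expressed genes (DEGs) at an adjusted p below 0.01 in edgeR's quasi-likelihood test with the replicate number as a block. Of these, 122 rose (0.839% of genes tested) and 149 fell (1.02%). Protein-coding DEGs that fell had a median log2 fold change of -0.41, against 0.59 for the DEGs that rose, and 29 DEGs passed a log2 fold change of 1 in either direction. Of the 271, 269 changed in the same direction in 4 of 4 pairs, which follows in part from their selection on the same libraries. In 217 of them the 4 BaP libraries lay all above or all below the 4 DMSO libraries, as they did in 9.05% of all genes tested. Without the block, 34 genes passed the same threshold (14 higher and 20 lower), all of them among the 271.

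**Figure D1:**
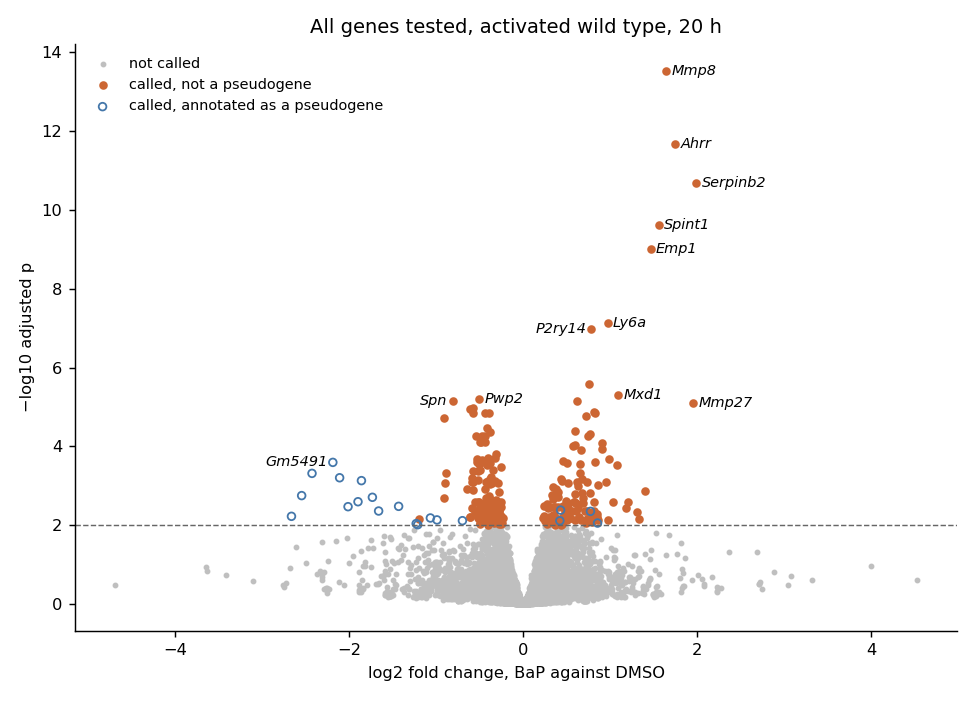
Each point is 1 of the 14537 genes tested, by its log2 fold change (BaP against DMSO, activated Ahr+/+ BMMs, 20 h) and the -log10 of its adjusted p from edgeR. Filled points above the dashed line, an adjusted p of 0.01, are DEGs, and open circles are DEGs annotated as pseudogenes, of which 16 of 20 lie to the left. Mmp8, Ahrr, Serpinb2, Spint1 and Emp1 lie highest on the right.

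Total counts on genes were 25018830 to 46162784 per BaP library and 21933112 to 47689280 per DMSO library, and 76.6% to 80.2% and 77.2% to 79.7% of read pairs fell on genes. In a principal component analysis of the 8 libraries, the first component held 42.1% of the variance. DMSO replicates 3 and 4 stood apart on it at 13.8 and 15.7, with DMSO replicates 1 and 2 at 1.71 and -0.81 and the BaP libraries between -4.67 and -13.3. Without those 2 DMSO libraries 36 genes were called (16 higher and 20 lower), 34 of them among the 271. Of the called genes named below, those still called there were Ahrr, Mmp8, Serpinb2, Serpinb8, Spint1, Emp1, Mxd1, Epb41l3, P2ry14, Ly6a, Pwp2, Rrp12, Utp20, Iars, Atic, Gart and Pim2, and the others lost their call. Leaving out any single library of the 8 gave 91 to 220 calls, the lowest without DMSO replicate 4. All 271 genes kept their direction in each of these 8 fits, which their selection on the same libraries makes likely. In every one of the 8 fits, 71 of the 271 were called. Over these fits and that without both DMSO replicates 3 and 4, 9 in all, Nos2, Il7r, Cd84 and Phgdh lost their call in 8. Nqo1, Dnah2, Il15ra, Il13ra1, Tbk1, Mndal, Pilra, Gfi1 and Gm5388 lost it in 7. Markers of the labelled cell type were present, since none of 12 macrophage markers was at 0 and their sum was 18400 to 22600 counts scaled to library size as CPM with BaP and 19200 to 24100 with DMSO. Markers of T cells summed to 0.623 to 0.839 CPM with BaP and 0.521 to 1.05 with DMSO, those of B cells to 0.48 to 0.847 and 0.944 to 1.16, those of neutrophils to 20.3 to 44.6 and 25.5 to 51.3, and those of dendritic cells to 15.7 to 24.9 and 21.1 to 39.0. The sums of the B cell list did not overlap between the groups, and their part in the results was not tested. All 6 erythroid markers were at 0 in each of the 8 libraries. In bulk RNA, fewer cells that express a gene and less RNA of it per cell cannot be told apart.

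Ahrr, which competes with AhR for ARNT and for the AHRE, is encoded on chromosome 13 between 74211118 and 74292331 on the minus strand of GRCm38. Its level was 17.2, 17.9, 20.7 and 18.9 CPM in BaP libraries 1 to 4, and 5.84, 6.16, 5.94 and 4.58 CPM in the DMSO libraries of the same numbers. The groups were far apart, with a narrow spread in each. The log2 fold change over the 4 pairs was 1.74 ± 0.15 (SE of the fit to all libraries), a 3.35-fold rise. Its adjusted p was 2.1e-12 in edgeR's test. The 250 bases before the RefSeq start of Ahrr (GRCm38.p6, chr13:74292332-74292581, minus strand) are printed with those before 3 other genes that rose, described further on, to show where the AHRE core lies and that 1 of these windows has none. The 3 other genes are Spint1 (chr2:119237110-119237359, plus strand), P2ry13 (chr3:59210883-59211132, minus strand) and Mmp8 (chr9:7558179-7558428, plus strand). Capitals mark GCGTG or its reverse complement CACGC, read 5′ to 3′ on the gene's strand.
Ahrr: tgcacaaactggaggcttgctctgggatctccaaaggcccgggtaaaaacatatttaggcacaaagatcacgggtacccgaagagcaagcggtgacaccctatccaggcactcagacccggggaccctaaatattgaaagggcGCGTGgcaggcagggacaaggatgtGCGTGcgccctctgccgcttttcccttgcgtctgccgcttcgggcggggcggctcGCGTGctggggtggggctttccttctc
Spint1: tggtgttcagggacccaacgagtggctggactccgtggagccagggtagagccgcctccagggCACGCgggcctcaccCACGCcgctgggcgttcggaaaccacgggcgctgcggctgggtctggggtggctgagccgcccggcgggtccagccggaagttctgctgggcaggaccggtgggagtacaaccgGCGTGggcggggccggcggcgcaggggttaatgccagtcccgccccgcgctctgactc
P2ry13: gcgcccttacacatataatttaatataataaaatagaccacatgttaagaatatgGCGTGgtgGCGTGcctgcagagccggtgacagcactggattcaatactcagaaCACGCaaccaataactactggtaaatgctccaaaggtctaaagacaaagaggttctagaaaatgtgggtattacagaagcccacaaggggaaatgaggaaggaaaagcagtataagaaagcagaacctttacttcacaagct
Mmp8: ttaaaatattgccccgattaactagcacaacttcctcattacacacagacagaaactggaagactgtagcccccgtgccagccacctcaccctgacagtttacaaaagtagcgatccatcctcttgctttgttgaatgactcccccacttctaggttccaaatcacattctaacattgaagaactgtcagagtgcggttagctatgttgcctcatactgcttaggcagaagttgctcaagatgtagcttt
The core occurred 3 times each before Ahrr, Spint1 and P2ry13, and no match lay in the window of Mmp8. The study searched a longer upstream window and lists Mmp8 as holding an AHRE. Among DEGs with a RefSeq promoter of 300 bases (250 before and 50 after the start), 45 of 102 that rose (44.1%) and 66 of 106 that fell (62.3%) held the core on either strand. It was in 55.1% of the promoters of genes tested, of which 10011 were matched, and in 35.2% of all promoters in the table. The interferon-stimulated response element core was in 3.92% of promoters of genes that rose and in 4.05% of those of genes tested. These matches describe the letters of the window and are no evidence of binding.

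Of 17 genes listed as AhR pathway members and classical targets, 11 were tested. Of these, 4 rose (36.4%, beside 0.839% of all genes tested) and none fell. The median log2 fold change of the 11 was 0.15, beside -0.00066 over all genes tested. Of the 11, 1 (Ahrr) was called without DMSO replicates 3 and 4. Tiparp, an ADP-ribosyltransferase that modifies AhR, had 107, 120, 128 and 121 CPM with BaP and 86.3, 89.0, 64.5 and 66.1 CPM with DMSO. The lowest BaP library was above the highest DMSO library, and it rose by 0.65 ± 0.12 on the log2 scale (SE; adjusted p = 0.000278). Nqo1, a quinone reductase, rose by 0.74 ± 0.17 (log2; adjusted p = 0.00434), with overlapping groups of 2.29 to 5.88 and 1.42 to 3.27 CPM. Ugt1a7c, a glucuronosyltransferase that shares exons with other Ugt1a genes and is therefore uncertain, rose by 0.45 ± 0.10 (log2; adjusted p = 0.00352). Ahr itself had 8.26 to 10.8 CPM with BaP and 11.9 to 14.9 CPM with DMSO, a log2 difference of -0.48 ± 0.17 that missed the threshold at an adjusted p of 0.0893.

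The Cyp1 genes, textbook AhR targets that encode monooxygenases, were hardly expressed and did not pass the filter on low counts. Cyp1a1 had 6, 4, 1 and 2 counts in the BaP libraries and 3, 2, 2 and 1 in the DMSO libraries, so a difference was not detectable at this depth. Cyp1b1 had 31, 3, 16 and 15 counts with BaP and 2, 1, 3 and 0 with DMSO. Per library size these were 0.12 to 1.14 CPM and 0 to 0.0978 CPM, so the groups did not overlap, at levels of few reads. In the fit without the filter, over 27360 genes, its log2 fold change was 3.22 ± 0.78 (adjusted p = 0.0051). In Ahr-/- BMMs the same fit gave 3.22 ± 1.53, which did not pass. Cyp1b1 had 0, 4, 0 and 1 counts there with BaP and 0 with DMSO, too few to compare the genotypes. Cyp1a2 had 0 counts in all 8 libraries.

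Matrix metalloproteinases and protease inhibitors were among the genes that rose most. Mmp8, a neutrophil collagenase, had 25.6, 31.6, 31.0 and 21.4 CPM with BaP and 8.09, 12.8, 9.65 and 5.41 CPM with DMSO. The groups did not overlap, and the 3.12-fold rise had the smallest adjusted p of all genes tested, 2.9e-14. Its neighbour Mmp27, another metalloproteinase gene 2.91 kb away on chromosome 9, was low at 2.02 to 3.46 CPM with BaP and 0.44 to 0.971 CPM with DMSO, a log2 fold change of 1.95 ± 0.28. Serpinb2, the plasminogen activator inhibitor 2, had the largest log2 fold change among DEGs that rose (1.99 ± 0.17), with 270, 167, 402 and 256 CPM against 45.7, 99.8, 65.4 and 62.9 CPM. All BaP libraries were higher than all DMSO libraries, although the order of the replicates differed between the groups, and without the block its adjusted p was 0.51. Serpinb8, another clade B serpin and the next gene tested on chromosome 1, rose by 0.62 ± 0.09 (log2). Spint1, a membrane-bound inhibitor of serine proteases such as hepsin and matriptase, had 7.41, 7.40, 6.69 and 6.89 CPM with BaP and 2.16, 2.76, 2.77 and 2.04 CPM with DMSO. Replicates were close in both groups, and the log2 fold change was 1.56 ± 0.15 (adjusted p = 2.4e-10). Of 26 matrix metalloproteinases and protease inhibitors tested, these 4 (Mmp8, Mmp27, Serpinb2 and Spint1) rose and none fell. The share that rose was 15.4%, beside 0.839% of all genes tested, and the median log2 fold change was 0.12. Without DMSO replicates 3 and 4, 3 of the 4 passed (not Mmp27) and the median was 0.26. With 1 library left out the median was 0.09 to 0.24.

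**Figure D2:**
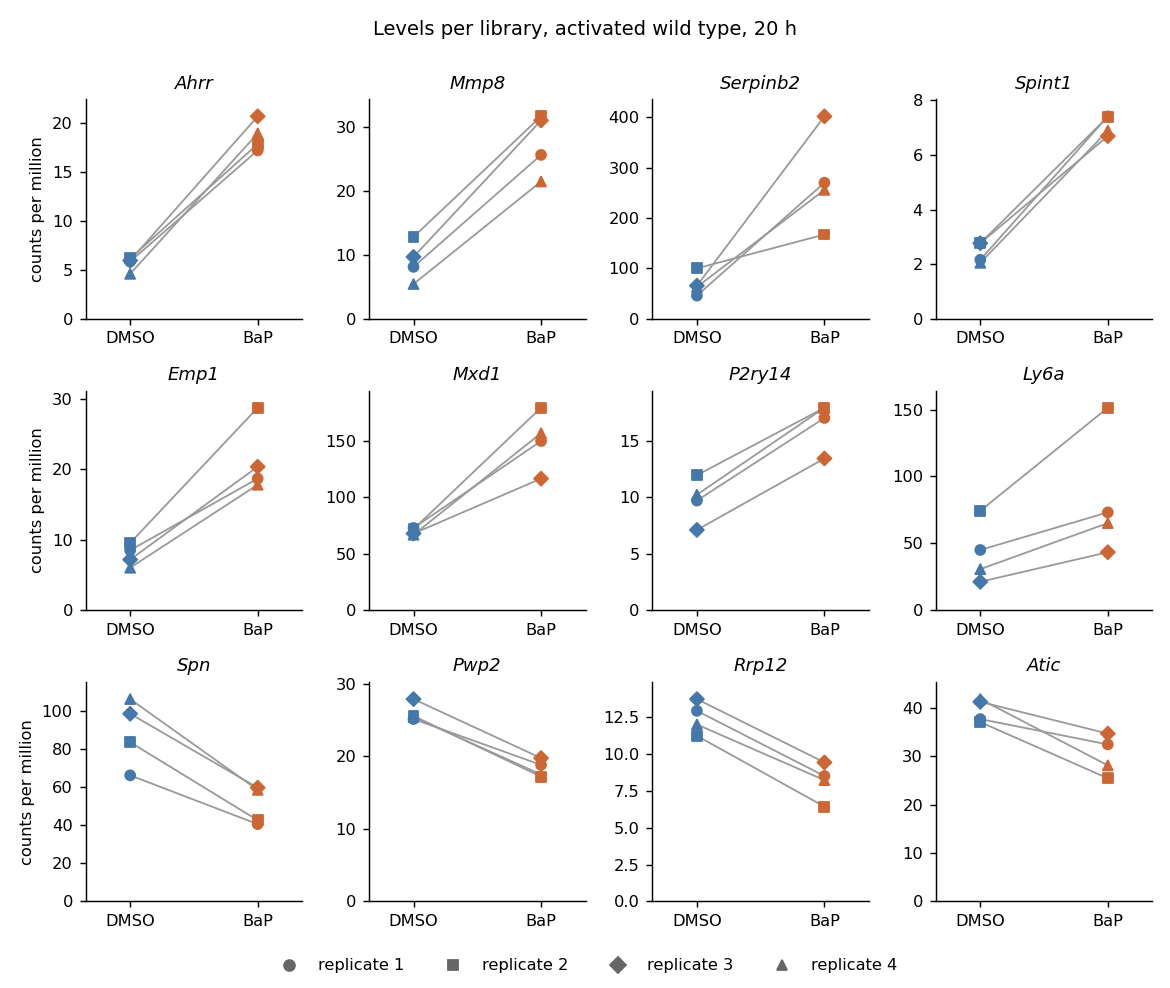
Levels in CPM (linear axes from 0) of 12 genes in the 4 DMSO and 4 BaP libraries of activated Ahr+/+ BMMs at 20 h, with a line and a marker shape for each replicate number. Every line rises for Ahrr, Mmp8, Serpinb2, Spint1, Emp1, Mxd1, P2ry14 and Ly6a, and every line falls for Spn, Pwp2, Rrp12 and Atic.

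Emp1, an epithelial membrane protein of the tetraspan type, had 18.7, 28.8, 20.4 and 17.8 CPM with BaP and 8.49, 9.53, 7.17 and 6.01 CPM with DMSO. The groups were apart, and the log2 fold change was 1.46 ± 0.15 (adjusted p = 1.0e-09). Mxd1, a MAX partner that represses MYC target genes, had 150, 179, 117 and 157 CPM against 72.8, 71.8, 67.9 and 66.8 CPM. No BaP library reached down to the DMSO level, and the log2 fold change was 1.09 ± 0.15 (adjusted p = 5.1e-06). It was the 1 DEG among 10 MYC, MAX and MXD genes tested (10%, beside 1.86% of all genes tested). Tns1, a focal adhesion protein, and Dnah2, a dynein heavy chain, rose by 1.40 ± 0.28 and 1.18 ± 0.26 on the log2 scale. Ccnd1, cyclin D1, rose by 0.67 ± 0.14 and was the 1 DEG among 30 cell cycle and DNA replication genes tested (3.3%). Epb41l3, a membrane skeleton protein, rose by 0.75 ± 0.10.

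Of 13 P2Y receptors and ectonucleotidases tested, a list put together after the values were seen, 3 rose and none fell. The share that rose was 23.1%, beside 0.839% of all genes tested. P2ry14, a receptor for UDP-glucose, had 17.0, 17.9, 13.4 and 17.9 CPM with BaP and 9.70, 11.95, 7.10 and 10.2 CPM with DMSO. The lowest BaP library lay above the highest DMSO library, and the log2 fold change was 0.78 ± 0.09 (adjusted p = 1.0e-07). P2ry13, an ADP receptor encoded near it on chromosome 3, rose by 1.08 ± 0.19, and Entpd1 (CD39), which hydrolyses extracellular ATP and ADP, by 0.72 ± 0.11. The median of the list was 0.17, with 3 genes negative, and it ranged from 0.07 to 0.34 with 1 library left out. P2ry14 alone of the 3 was called without DMSO replicates 3 and 4.

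Another list put together after the values were seen held interleukin 15, receptors of the gamma chain cytokines and the related Il13ra1. Of its 7 genes tested, 5 rose. That share of 71.4%, beside 0.839% of all genes tested, follows in part from this choice and is no independent evidence. Il2rg, the common gamma chain itself, had a log2 difference of -0.03 ± 0.07 (adjusted p = 0.821 in edgeR's test). Il21r, the receptor of interleukin 21, had 88.6, 99.7, 93.8 and 103 CPM with BaP and 59.5, 65.1, 64.5 and 65.7 CPM with DMSO. The groups were apart, and the log2 fold change was 0.59 ± 0.12 (adjusted p = 0.00163). Il15 rose by 0.68 ± 0.15, its receptor Il15ra by 0.45 ± 0.11, Il7r by 0.84 ± 0.19 and Il13ra1, a chain of the receptor for interleukin 13, by 0.59 ± 0.14. For Il15 and Il7r the BaP and DMSO libraries overlapped, and none of the 5 passed without DMSO replicates 3 and 4, where the median of the 7 genes was 0.47 in place of 0.59. Of 26 cytokine receptors tested, 3 rose (Il21r, Il15ra and Il13ra1, 11.5%) and none fell, with a median of 0.06 (0.10 without DMSO replicates 3 and 4). Among 23 inflammatory and regulatory cytokines Il15 was the 1 DEG (4.3%, beside 1.86% of all genes tested). Il1b had a log2 difference of -0.09 ± 0.17 (adjusted p = 0.818). The study also found no significant change of Il1b by sequencing, but reports a dose-dependent fall by RT-qPCR.

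Genes of bacterial sensing changed in few cases. Of 24 Toll-like receptors and adaptors tested, 2 rose (8.3%, beside 0.839% of all genes tested). Tlr13, which binds bacterial ribosomal RNA, rose by 0.58 ± 0.12 and Cd180, a homologue that modulates Tlr4, by 0.56 ± 0.13. The median of the list was 0.15 (0.10 without DMSO replicates 3 and 4). Neither Tlr13 nor Cd180 passed without DMSO replicates 3 and 4. Tbk1, a kinase upstream of interferon regulatory factors, rose by 0.24 ± 0.05. It was the 1 DEG among 30 interferon receptors, kinases and transcription factors (3.3%, beside 1.86% of all genes tested). Nos2, the inducible nitric oxide synthase, had 575, 602, 475 and 423 CPM with BaP and 330, 267, 295 and 174 CPM with DMSO. The groups did not overlap, and the log2 fold change was 0.97 ± 0.23 (adjusted p = 0.00755), which did not pass without DMSO replicates 3 and 4. Among the fits that left out a single library, Nos2 kept its call only without DMSO replicate 3. Cd274 (PD-L1) rose by 0.34 ± 0.08, Cd84, a SLAM family receptor, by 0.36 ± 0.09, the peroxidase Prdx1 by 0.40 ± 0.08 and the lysosomal protease Ctsl by 0.34 ± 0.07. Ido2, a tryptophan-degrading enzyme, was low at 1.17 to 1.81 CPM with BaP and 0.534 to 0.747 CPM with DMSO and rose by 1.20 ± 0.26. By RT-qPCR the study reports a rise of Ido2 with both ligands. Tbk1, Cd274, Cd84, Prdx1, Ctsl and Ido2 were not called without DMSO replicates 3 and 4. Of 16 NF-kB subunits and feedback inhibitors and 25 p53 targets, none was called by edgeR or by DESeq2. In edgeR's test 3 and 9 of them had an unadjusted p below 0.05, beside 19.6% of all genes tested.

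Interferon-stimulated genes were mostly positive without passing the test. Of 54 antiviral interferon-stimulated genes tested, 2 rose (Ly6a and Mndal, a DNA-sensing PYHIN protein) and none fell. The share that rose was 3.7%, beside 0.839% of all genes tested. Of the 54, 50 had a positive log2 difference, where 49.8% of all genes tested did. Mndal was not called without DMSO replicates 3 and 4, which left 1 call. The median was 0.25, and 15 of the 54 had all BaP libraries above all DMSO libraries, as 4.03% of all genes tested had. The 18 interferon-inducible GTPases were all positive with a median of 0.31. None of them was called by edgeR or DESeq2, with 10 at an unadjusted p below 0.05, beside 19.6% of all genes tested. The median over the antiviral list was 0.06, 0.26, 0.30 and 0.39 in pairs 1 to 4 and that over the GTPases 0.02, 0.41, 0.41 and 0.42, so pair 1 was close to 0 in both. Ly6a (Sca-1) had 73.1, 151, 43.2 and 65.0 CPM with BaP and 44.9, 74.2, 21.1 and 30.6 CPM with DMSO. Its groups overlapped because replicates differed widely, while each BaP library was higher than its own DMSO library. The log2 fold change was 0.97 ± 0.11 (adjusted p = 7.2e-08 with the block and 0.43 without it). Mx1, an antiviral GTPase, had 602 to 1077 CPM with BaP and 450 to 637 CPM with DMSO, a log2 difference of 0.58 ± 0.19 (adjusted p = 0.0603). Iigp1, an immunity-related GTPase that acts on the vacuoles of pathogens, had a log2 difference of 0.78 ± 0.20 (adjusted p = 0.016). Of 14 genes of MHC class II presentation, 12 were positive with a median of 0.23, and edgeR and DESeq2 called none, with 6 at an unadjusted p below 0.05.

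Of 33 tested genes that the study names in its results text, 9 rose and 3 fell, but the list was chosen on these samples and is no independent evidence of its direction. In the fit without DMSO replicates 3 and 4, 4 rose and none of the 3 that fell was called. Those that fell were Spn (CD43), an anti-adhesive sialoglycoprotein, Lcp2, a signalling adaptor, and Ccl3, a chemokine for monocytes. Spn had 40.7, 42.7, 59.9 and 58.7 CPM with BaP and 66.4, 83.8, 98.8 and 106 CPM with DMSO. The groups did not overlap, and the log2 fold change was -0.81 ± 0.12 (adjusted p = 6.8e-06). By RT-qPCR over a range of ligand doses, the study reports the opposite direction for Spn, a rise. Ccl3 had 878 to 1310 and 1072 to 1954 CPM, which overlap, and a log2 fold change of -0.49 ± 0.12 (adjusted p = 0.00665). Lcp2 had a log2 fold change of -0.26 ± 0.06, and Pilra, an inhibitory receptor outside this list, of -0.33 ± 0.08. Among those that did not pass were Il12rb1 (0.89 ± 0.24, adjusted p = 0.0223), Casp1 (0.37 ± 0.10, adjusted p = 0.0218), Igf1 (0.33 ± 0.09, adjusted p = 0.0269) and Irf1 (0.23 ± 0.08, adjusted p = 0.0654). The study, which used DESeq2 with a false discovery rate below 0.01, counts all of these among its DEGs with BaP. By RT-qPCR it reports a rise of Il12rb1 with both ligands.

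Genes of ribosome assembly stood out among those that fell. Pwp2, a component of the small subunit processome, had 18.8, 17.2, 19.8 and 17.5 CPM with BaP and 25.2, 25.6, 27.9 and 25.4 CPM with DMSO. The spread within each group was small beside the gap between them, and the log2 fold change was -0.51 ± 0.07 (adjusted p = 6.1e-06). Rrp12, which takes part in the export of ribosomal subunits, had 8.52, 6.43, 9.44 and 8.23 CPM against 12.9, 11.2, 13.7 and 12.01 CPM. There was again no overlap, and the log2 fold change was -0.62 ± 0.09 (adjusted p = 1.2e-05). Utp20, Nol6 and Rbm19, which act in the processing of pre-ribosomal RNA, the nucleolar protein Nolc1, Rrp15, the exosome subunit Exosc2 and the RNA polymerase I subunits Polr1a and Polr1b had log2 fold changes of -0.53 to -0.36. Of 54 genes tested whose symbols begin with Utp, Rrp, Nop, Nol, Noc, Exosc or Polr1, 13 fell and none rose. The share that fell was 24.1%, beside 1.02% of all genes tested. This list, made after the values were seen, had 51 negative genes and a median of -0.21. Without DMSO replicates 3 and 4 the median was -0.22 with 52 negative, and 2 of the 54 were called.

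Cytosolic ribosomal protein genes were lower throughout: all 82 tested had a negative log2 difference, between -0.44 and -0.07 with a median of -0.24. The threshold was passed by 8 (9.8%, beside 1.02% of all genes tested that fell). In 31 of the 82 all BaP libraries were below all DMSO libraries, as in 5.01% of genes tested. Rpl3, a protein of the large subunit, had 239, 219, 293 and 288 CPM with BaP and 277, 326, 376 and 435 CPM with DMSO. The groups overlapped slightly, each pair fell, and the log2 fold change was -0.44 ± 0.07 (adjusted p = 1.4e-05). Rpl10a and Rpl12 had log2 fold changes of -0.44 ± 0.09 and -0.40 ± 0.08. By pair, the median over the 82 genes was -0.08, -0.22, -0.23 and -0.39 for pairs 1 to 4. Without DMSO replicates 3 and 4 the 82 were still all negative, with a median of -0.18, and none was called.

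Enzymes that feed protein and nucleotide synthesis were among the genes that fell, in lists put together after the values were seen. All 37 aminoacyl-tRNA synthetase genes tested had negative differences, with a median of -0.17, and 5 fell (13.5%, beside 1.02% of all genes tested). Without DMSO replicates 3 and 4, 33 of the 37 were negative, with a median of -0.13, and 1 (Iars) was called. Among the 5 were Vars (-0.47 ± 0.08), Iars (-0.32 ± 0.07) and the mitochondrial Ears2 (-0.54 ± 0.12). Of 18 purine and pyrimidine synthesis genes tested, 6 fell (33.3%) and none rose. In the list 14 were negative and 4 positive, the highest at 0.39, and 2 of the 6 (Atic and Gart) were called without DMSO replicates 3 and 4. Atic, which carries out the last steps of inosine monophosphate synthesis, had 32.4, 25.4, 34.6 and 28.1 CPM with BaP and 37.6, 37.0, 41.2 and 41.8 CPM with DMSO. The highest BaP library lay below the lowest DMSO library, and the log2 fold change was -0.39 ± 0.06 (adjusted p = 1.4e-05). Gart, Impdh2 and Cad, enzymes of the same pathways, had log2 fold changes of -0.44 ± 0.07, -0.31 ± 0.07 and -0.43 ± 0.10. Shmt2 and Phgdh, of mitochondrial folate metabolism and serine synthesis, had -0.48 ± 0.08 and -0.50 ± 0.12. They were the DEGs among 13 serine and folate genes tested (15.4%). Pim2, a growth-promoting kinase, had a log2 fold change of -0.91 ± 0.14, and Gfi1, a transcriptional repressor at 0.322 to 1.32 CPM with BaP and 2.01 to 2.58 CPM with DMSO, of -1.20 ± 0.29.

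**Figure D3:**
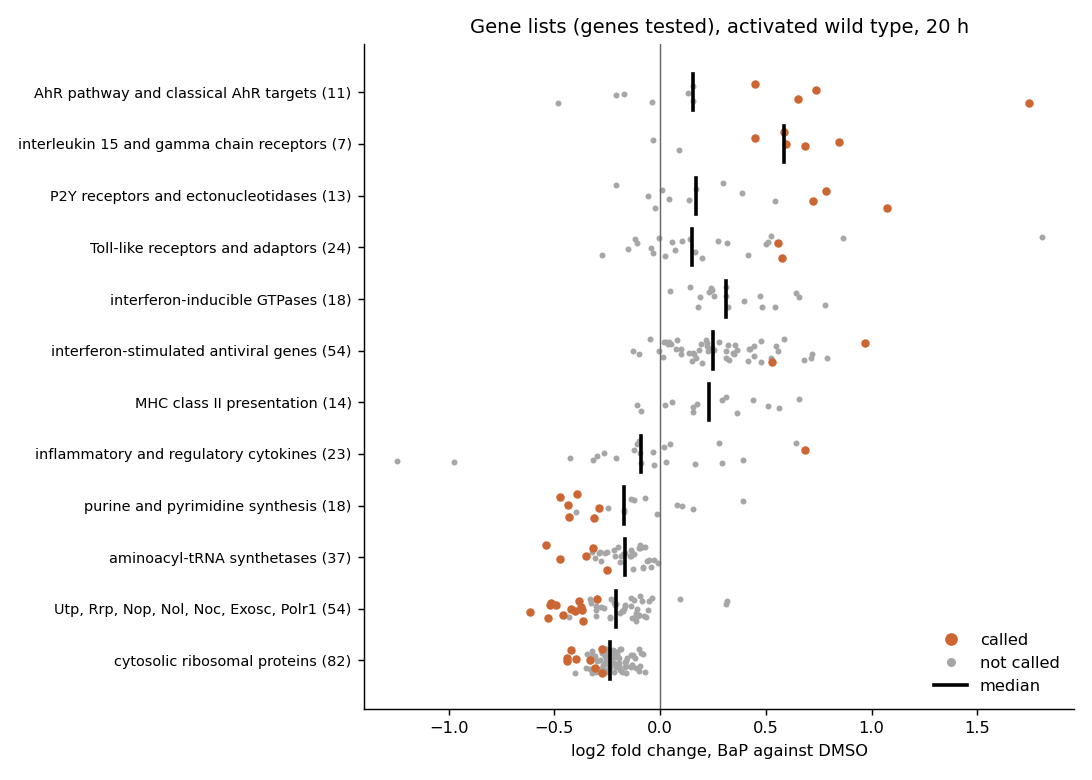
Log2 fold changes (BaP against DMSO, activated Ahr+/+ BMMs, 20 h) of the genes tested in 12 lists, with the number of genes in brackets, DEGs as larger coloured points and the median of each list as a bar. The 82 ribosomal protein and 37 tRNA synthetase genes all lie left of 0 and the 18 interferon-inducible GTPases all right of 0, while few of them are DEGs.

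The largest falls were of pseudogenes: of 15 DEGs with a log2 fold change below -1, 14 are annotated as pseudogenes. Gm5491 had 0.551, 0.241, 0.478 and 0.268 CPM with BaP and 1.03, 1.87, 2.01 and 2.02 CPM with DMSO, a log2 fold change of -2.19 ± 0.39. Gm9512 had 1.64 to 2.86 CPM against 6.02 to 8.58 CPM and a log2 fold change of -1.86 ± 0.36. Gm10029, AC166779.2, Rpl7a-ps7 and Gm5388, all below 2 CPM in these libraries, had log2 fold changes between -2.66 and -2.11. Each of these 6 had all BaP libraries below all DMSO libraries, and none of them was called without DMSO replicates 3 and 4. Processed pseudogenes are copies of spliced transcripts that can be near-identical to the parent gene, so reads can be split between the copies and these counts are uncertain. Over 1396 processed pseudogenes tested the median was -0.19, with 16 lower and 2 higher, a share called of 1.3% beside 1.86% of all genes tested. Over 136 named for a ribosomal protein the median was -0.37, with 6 lower (4.4%) and none higher. The 16 pseudogenes that fell all had negative differences with BaP in Ahr-/- BMMs too, where their median was -1.29.

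The same exposure in Ahr-/- BMMs gave 4 DEGs (0.0275%), all lower and all pseudogenes (Gm5491, Gm9512, Rpl7a-ps14 and Gm7434). Ahr reads were present there at 20.4 to 27.2 CPM with BaP and 21.3 to 28.1 CPM with DMSO, more than in Ahr+/+ BMMs, so that the counts of this gene do not check the label. Ahrr was at 0.656 to 1.18 CPM with BaP and 0.626 to 0.81 CPM with DMSO in Ahr-/- BMMs. The test of the difference between the genotypes called 26 genes (0.179%), 9 with a more positive (0.0619%) and 17 with a more negative effect (0.117%) in Ahr+/+ BMMs. Mmp8 differed by 1.95 ± 0.25 on the log2 scale (adjusted p = 4.6e-06), with 0.637 to 0.827 CPM after BaP and 0.637 to 1.20 CPM after DMSO in Ahr-/- BMMs. Ahrr differed by 1.43 ± 0.27 (adjusted p = 0.00257), Emp1 by 1.49 ± 0.24, Ly6a by 1.10 ± 0.17 and P2ry14 by 0.83 ± 0.14. Serpinb2 differed by 2.18 ± 0.29, but it was at 0 in replicates 3 and 4 of both Ahr-/- groups and at 32.3 to 45.6 CPM in replicates 1 and 2, so its Ahr-/- value rests on those 4 libraries. Of genes that fell, Pwp2 (-0.56 ± 0.10), Rrp12 (-0.68 ± 0.12), Atic (-0.45 ± 0.08), Rpl3 (-0.47 ± 0.09), Vars (-0.61 ± 0.12) and Spn (-0.81 ± 0.16) were among the 26. Without the block edgeR called none (679 genes, or 4.67%, at an unadjusted p below 0.05), and DESeq2 with the block called 84. Without DMSO replicates 3 and 4 the test called 4 genes, Mmp8, Serpinb2, Ly6a and P2ry14.

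The 122 genes that rose in Ahr+/+ BMMs had a median log2 difference of 0.0022 in Ahr-/- BMMs, with 62 positive and 60 negative. The 133 protein-coding genes that fell had a median of 0.026 there. Both sets were selected on the Ahr+/+ libraries, so a smaller median in other libraries follows in part from the selection. Of the 122 and the 133, 9 and 17 passed the test of the difference between the genotypes. The ribosomal protein list was split into 41 positive and 41 negative with a median of -0.0030, and the antiviral interferon-stimulated list had 21 of 54 positive with a median of -0.02. Medians of the ribosomal protein list by Ahr-/- pair were 0.02, -0.18, 0.05 and 0.07. The difference between the genotypes was not tested for lists.

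**Figure D4:**
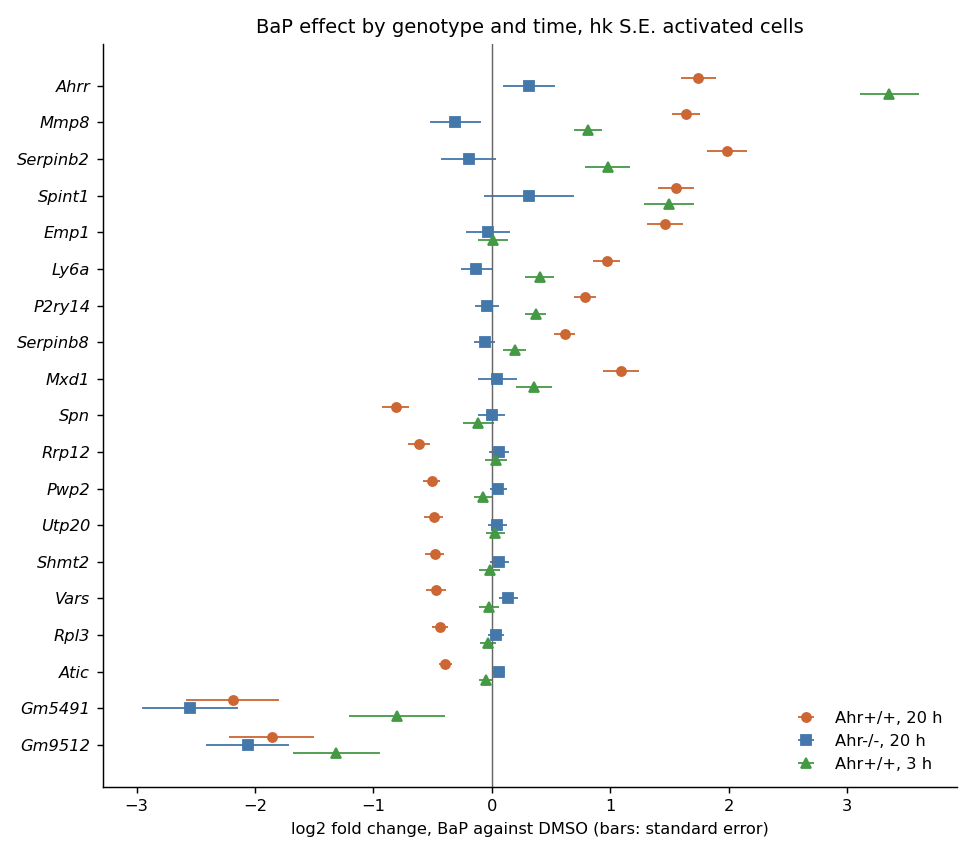
Log2 fold changes of BaP against DMSO with their standard errors for 19 genes in hk S.E.-activated Ahr+/+ BMMs at 20 h (circles), Ahr-/- BMMs at 20 h (squares) and Ahr+/+ BMMs at 3 h (triangles). Ahrr is furthest from 0 at 3 h (3.36), Emp1 is at 0.01 at 3 h and 1.46 at 20 h, and the pseudogenes Gm5491 and Gm9512 are below 0 in both genotypes.

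**Figure D5:**
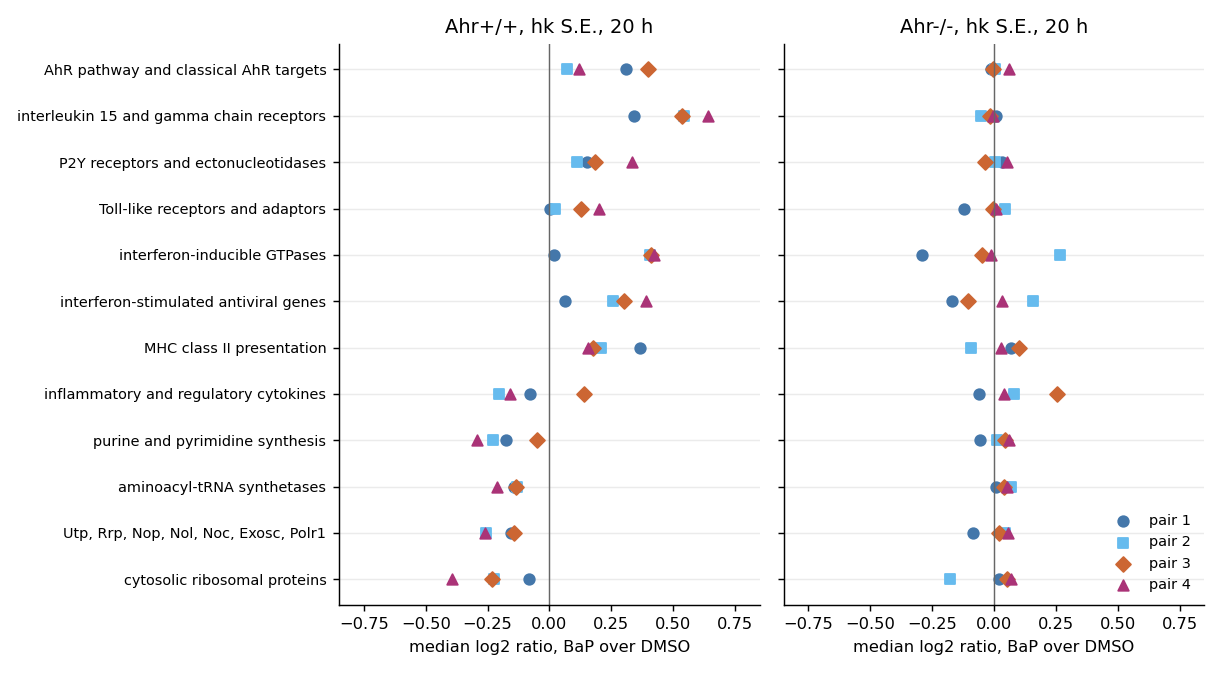
Median log2 ratio of BaP over DMSO within each pair of same-numbered libraries (1 marker per pair) over 12 gene lists, in Ahr+/+ BMMs (left) and Ahr-/- BMMs (right) at 20 h. In Ahr+/+ BMMs all 4 pairs lie below 0 for the ribosomal protein list (-0.39 to -0.08), while in Ahr-/- BMMs they lie on both sides (-0.18 to 0.07).

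In Ahr+/+ BMMs activated for 3 h, 13 genes passed the threshold with BaP (0.0894%), each of them higher, and 10 were also among those at 20 h. Ahrr had 4.18, 6.96, 4.79 and 5.56 CPM with BaP and 0.562, 0.566, 0.346 and 0.582 CPM with DMSO at 3 h, so both levels were below those at 20 h. The log2 fold change at 3 h was 3.36 ± 0.25, and the difference from 20 h (-1.61 ± 0.30) had an adjusted p of 0.016. Spint1 (1.50 ± 0.21), Serpinb2 (0.98 ± 0.19), Il21r (0.81 ± 0.15), Mmp8 (0.81 ± 0.12) and Ugt1a7c (0.50 ± 0.10) were the other DEGs at 3 h named here. The test of the difference between the time points called Emp1 (0.00688% of genes), whose effect was 1.45 ± 0.20 larger at 20 h on the log2 scale. Its level at 3 h was 409 to 478 CPM with BaP and 380 to 509 CPM with DMSO, many times that at 20 h. Without the block edgeR called no gene by time (734, or 5.05%, at an unadjusted p below 0.05), and DESeq2 with the block called 33. The 133 protein-coding genes that fell at 20 h had a median of 0.0036 at 3 h, with 69 positive and 64 negative. The 122 that rose at 20 h had a median of 0.10 at 3 h, with 85 positive and 37 negative. The 16 pseudogenes that fell at 20 h were all negative at 3 h, with a median of -0.84.

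BaP at 1 µM and I3C at 10 µM were compared with the same 4 DMSO libraries, so their fold changes are not independent of each other. A deviation of these DMSO libraries, some of which stood apart in the principal component analysis, moves both values the same way. Similar values with BaP and I3C can therefore come in part from the shared DMSO libraries. Values with I3C are not given without the DMSO libraries that stood apart. The doses differ too, so the values only stand side by side. The log2 fold changes with BaP and with I3C at 20 h were 1.74 and 1.52 for Ahrr, 1.64 and 1.44 for Mmp8, 1.99 and 2.07 for Serpinb2, 1.46 and 0.95 for Emp1, and 1.09 and 0.48 for Mxd1. The list medians were -0.24 and -0.10 for ribosomal proteins and 0.25 and 0.17 for antiviral interferon-stimulated genes. A direct test of BaP against I3C libraries called 77 genes (0.53%), 69 higher (0.475%) and 8 lower (0.055%) with BaP. I3C against DMSO gave 147 DEGs (1.01%), 32 higher (0.22%) and 115 lower (0.791%). Of these 147, 66 were processed pseudogenes, whose counts are uncertain, and 81 were protein coding. Of the 77 called between the ligands, 26 were processed pseudogenes and 51 protein coding. Processed pseudogenes were 1396 of the 14537 genes tested. Of the 69, 53 were DEGs of I3C against DMSO and 2 of BaP against DMSO, one of them Ccnd1. Of the 8, 7 were DEGs of BaP against DMSO, among them Atic (-0.31 ± 0.06), Rpl3 (-0.30 ± 0.07), Impdh2 and Polr1b, and none was a DEG of I3C against DMSO.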

How the data were processed

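Poly(A) RNA of 64 BMM libraries in 16 groups of 4 was sequenced in pairs of reads with a stranded kit. The authors deposited raw read pair counts per gene, made with HISAT2 2.1.0 on mm10 and HTSeq 0.9.1 on GENCODE annotation (strand-specific), with bcl2fastq 2.19.0.316 before them, per the submitters' processing notes. Reads that map to several places are not counted (13.0% to 14.2% in the 8 libraries compared), which lowers counts of genes with near-identical copies. The 5 rows that name no gene were left out. The authors' variance-stabilized table was not used.

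Genes were filtered with filterByExpr (minimum count 10), which left 14537, and tested with edgeR 4.0.16 in R 4.3.3 (TMM, quasi-likelihood F test, 16 group means plus replicate number within genotype as a block, 42 residual degrees of freedom). P-values were adjusted by Benjamini-Hochberg over all genes tested, and genes below 0.01 were called. Levels are CPM scaled by TMM. The block was used because deviations of same-numbered BaP and DMSO libraries from their group means correlated at 0.275 to 0.460 over 8152 genes in Ahr+/+ BMMs at 20 h, against -0.381 to 0.134 for other numbers. At 3 h the same values were 0.219 to 0.617, against -0.499 to 0.082 for other numbers. In Ahr-/- BMMs they were 0.613 to 0.894, but -0.912 to 0.906 for other numbers. There 3 of 4 BaP libraries correlated best with the DMSO library of their own number, so the pairing was less clear. Pair ratios had 0.5 CPM added. Gene positions are from GENCODE M21 (GRCm38) and promoters from RefSeq (GRCm38.p6).

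The comparison, its genes and its lists were chosen with earlier results of these data known. Named genes were those the study names, Ahr, Tiparp and the Cyp1 genes, in each direction the 12 called genes with the largest change among those without overlap, the 10 with the smallest p, called members of lists and genes called by the genotype or time test. Others were chosen after their values were seen. On simulated counts for this comparison over 14537 genes, 36%, 64%, 94% and 100% of 50 genes changed 1.3-fold, 1.5-fold, 2-fold and 3-fold were called, with 1 false call among 148. These counts were drawn from the fitted model itself, with the pairing in place. The changed genes were taken from those with an average log2 CPM above 1. The simulation therefore gives no rate of false calls for the real libraries. Alternatives were DESeq2 1.42.0, RLE size factors, no filter, other blocks, fewer libraries and each library left out.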

Additional observations from a re-analysis of the deposited data

Results flagged for a closer look

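Among 79 genes, 158 groups of 4 libraries were searched for a library far from the other 3, and 10 were found, where chance gives about 1 in 20. In the BaP libraries these were Epb41l3 in replicate 3 (24.79 CPM, the highest), Gm9512 in replicate 1 (2.863 CPM, the highest) and Ctsl in replicate 1 (800.7 CPM, the lowest). In the DMSO libraries, replicate 3 was highest for Pwp2 (27.91 CPM) and Gart (43.56 CPM) and lowest for Iigp1 (16.19 CPM) and Casp1 (130.1 CPM). DMSO replicate 1 was lowest for Gm5491 (1.033 CPM) and Lcp2 (353.1 CPM), and DMSO replicate 4 was highest for Irf1 (191.6 CPM).

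The BaP effect differed between the genotypes at 20 h, by edgeR's test of the difference, for 18 genes named in the text. It was more positive in Ahr+/+ than in Ahr-/- BMMs for Serpinb2 (2.18 on the log2 scale), Mmp8 (1.95), Emp1 (1.49), Ahrr (1.43), Ly6a (1.10), P2ry14 (0.83) and Serpinb8 (0.68). It was more negative for Spn (-0.81), Rrp12 (-0.68), Vars (-0.61), Pwp2 (-0.56), Rbm19 (-0.55), Nol6 (-0.55), Shmt2 (-0.55), Utp20 (-0.54), Nolc1 (-0.49), Rpl3 (-0.47) and Atic (-0.45). Between 20 h and 3 h the effect differed for Emp1 (1.45 on the log2 scale).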

How the results depend on the processing

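Of the 271 calls at 20 h, no replicate block left 34, and the replicate block within genotype and time point gave 619. DESeq2 with the block gave 419, the 8 libraries alone 420 with and 25 without the replicate block, DESeq2 on those 8 gave 518, the 32 wild-type libraries 642, and a threshold of 0.05 gave 756. Chosen after seeing the data, the fits without DMSO replicates 3 and 4 gave 36 and without both libraries of replicates 3 and 4 gave 24. Leaving out 1 library or 1 replicate number gave 47 to 220, with 114 without BaP replicate 2, 168 without BaP replicate 3, 128 without BaP replicate 4, 158 without DMSO replicate 2 and 91 without DMSO replicate 4. For the genotype test (26), the counts were 0 without the block, 96 with the block within genotype and time, 59 with no filter, 84 with DESeq2, 4 without DMSO replicates 3 and 4, 88 at 0.05, and 10 to 33 with 1 library left out. For the time test (1), they were 0, 41, 23 and 33 in the same order, 25 at 0.05, and 1 to 10 with 1 library left out. For BaP against I3C (77), they were 41 without the block, 130 with the block within genotype and time, 121 with DESeq2, 275 and 9 on the 8 libraries with and without the block, 158 at 0.05, and 50 to 67. In Ahr-/- BMMs (4), they were 2 without the block, 28 with no filter, 10 with DESeq2, 10 at 0.05, and 0 to 5. At 3 h (13), they were 7 without the block, 22 with the block within genotype and time, 21 with no filter, 21 with DESeq2, and 8 to 13. The cause was not tested. Of 70 called genes compared, none changed direction under the 16 settings compared, which their selection on the same libraries makes likely. Of the 70, 19 were called without the replicate block and 17 without DMSO replicates 3 and 4. With 1 library left out, 39 (without DMSO replicate 4) to 62 were called. In every one of the 8 fits that left out 1 library, 71 of the 271 genes were called. RLE size factors moved the median by 0.0056. Genes of few CPM, such as the Cyp1 genes, are limited by depth.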

Other observations

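Some genes that rose at 20 h lie close together in the genome, a description made after the values were seen and without a test. Of the 122 genes that rose, 22 (18%) had another gene that rose within 100 kb, as had 2.59% of 14413 other genes tested. Among the 149 that fell, 8 (5.37%) had another that fell within 100 kb, beside 4.81% of 14386 other genes. The pairs that rose include Mmp8 and Mmp27, 2.91 kb apart on chromosome 9, Serpinb2 and Serpinb8, 54.5 kb apart on chromosome 1, and P2ry14 and P2ry13, 54.3 kb apart on chromosome 3, each of one gene family. Exoc3, a subunit of the exocyst, lies 2.39 kb from Ahrr on chromosome 13 and had a log2 fold change of 0.22. Cysltr2, a leukotriene receptor, Rcbtb2 and Lpar6, a receptor for lysophosphatidic acid, lie in a row on chromosome 14, with log2 fold changes of 0.77, 0.59 and 0.95.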
